A study of Chlamydomonas reinhardtii with 9 samples.

Results

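The focal sites shared by PAF1 and SKIP are short stretches of Chlamydomonas reinhardtii chromosomes at which each of 6 libraries held exactly 1 called ChIP-seq interval. They were chosen by the called intervals themselves, by pooling the intervals of 3 PAF1-HA and 3 SKIP-HA libraries, merging those that overlapped by at least 1 bp, and keeping merged regions on chromosomes with 1 interval from each list. This left 1354 focal sites among 36946 merged chromosome regions, which is 3.66%, and among 37052 merged regions on all sequences. Chlamydomonas reinhardtii is a unicellular green alga. Chromatin of strain CC5325 was cross-linked with formaldehyde and immunoprecipitated through the HA tag, in cells described as PAF1-HA and SKIP-HA (n = 3 libraries each). The labels name these samples paf1 and skip, and do not say whether the lines also carry a mutation, which promoter drives the tagged protein, or whether replicates came from separate cultures. Replicate 3 of each protein carries other label fields than replicates 1 and 2. The 3 wild-type libraries of the series were not analysed here, so no interval can be set against untagged cells.

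PAF1 gives its name to a protein complex that travels with RNA polymerase II and is needed for normal elongation and for histone marks over transcribed genes. SKIP is an SNW-domain protein that belongs to the spliceosome, and in Arabidopsis it also acts with the PAF1 complex in transcription. Factors that travel with the polymerase often give broad ChIP signal along genes, whereas a factor held at a fixed point gives a narrow one. The number of intervals a library places in a region, and how closely the centres of different libraries coincide, are described below. They do not measure how broad the signal is, since nearly all called intervals have the same width. Whether they follow its breadth was not tested.

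The data are positions only. An interval carries no score, height or count, nearly all are 400 bp wide, and the read depth is unknown. The PAF1-HA lists held 16329 to 17645 intervals, and the SKIP-HA lists 19709 to 24680. An absent interval is an absent call and not an absence of protein. Positions are printed 1-based, with the deposited starts read as counted from 0, which the files do not state, so they may be off by 1 bp. The genome build is not given in the sources used here, so genes and DNA sequence at the sites were not analysed here. The rule used the presence of intervals in all 6 lists. Counts of sites, their isolation and their place on chromosomes are therefore descriptions without a test, while the side on which each protein's centre fell, and calls in lists not used to choose a site, were independent of it.

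Focal sites were the smaller class among the regions called in every library. An interval in all 6 libraries was found for 3025 chromosome regions, of which the focal sites made up 44.8%, and the other 1671 held several intervals in at least 1 library. Just outside the rule lay 1330 regions with 1 interval in 5 libraries and none in the sixth, and 368 with 1 interval in 5 libraries and several in the sixth, of which 349 had 2. The library without an interval was PAF1-HA replicate 2 in 250 regions, replicate 3 in 243 and replicate 1 in 229. It was SKIP-HA replicate 3 in 217, replicate 1 in 202 and replicate 2 in 189. No library accounted for most of the near misses. Each PAF1-HA library was the absent one more often than any SKIP-HA library, and the PAF1-HA lists were shorter. The part of list length in this was not tested. Focal sites took 8.33%, 8.0% and 7.71% of the chromosome intervals of PAF1-HA replicates 1 to 3, and 6.90%, 6.09% and 5.50% of those of SKIP-HA replicates 1 to 3. The number of intervals is the same in each library by the rule, so these shares fall as the lists lengthen.

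The 6 centres of a focal site usually lay within a fraction of 1 interval. The distance between the outermost of the 6 centres, here called the span, had a median of 80.0 bp, with quartiles of 36.0 and 168 bp and a range of 2 to 1010 bp. In 125 sites (9.23%) the span was at most 20 bp, in 784 (57.9%) at most 100 bp, and in 69 (5.10%) above 400 bp, where the 6 intervals were linked only as a chain. The sites were most frequent at spans of 20 to 30 bp, with 135 sites in that bin of 10 bp. The frequency then fell unevenly, with several small rises. Among these were 73 sites between 60 and 70 bp, 63 between 80 and 90 bp and 50 between 150 and 160 bp. The bins on either side of the last held 36 and 31 sites. The merging rule limits the span, so its size is a description.

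At the closest site of each chromosome the span ran from 2 bp on chromosome 17 to 14 bp on chromosome 11. On chromosome 17 at 344352 to 344753, the centres of PAF1-HA replicates 1 to 3 all lay 2 bp right of the leftmost centre, and those of SKIP-HA replicates 1 to 3 lay 1, 0 and 2 bp right of it. On chromosome 7 at 4961966 to 4962369 they lay at 3, 1 and 4 bp for PAF1-HA and at 3, 4 and 0 bp for SKIP-HA. On chromosome 16 at 4688565 to 4688976, where the closest site was looser, they lay at 11, 5 and 0 bp and at 12, 7 and 3 bp. In each of these sites the centres of PAF1-HA and SKIP-HA overlapped. The widest site lay on chromosome 3 at 2645333 to 2646742. Its PAF1-HA centres stood at 1010, 541 and 102 bp and its SKIP-HA centres at 160, 613 and 0 bp, and here too the groups overlapped.

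**Figure D1:**
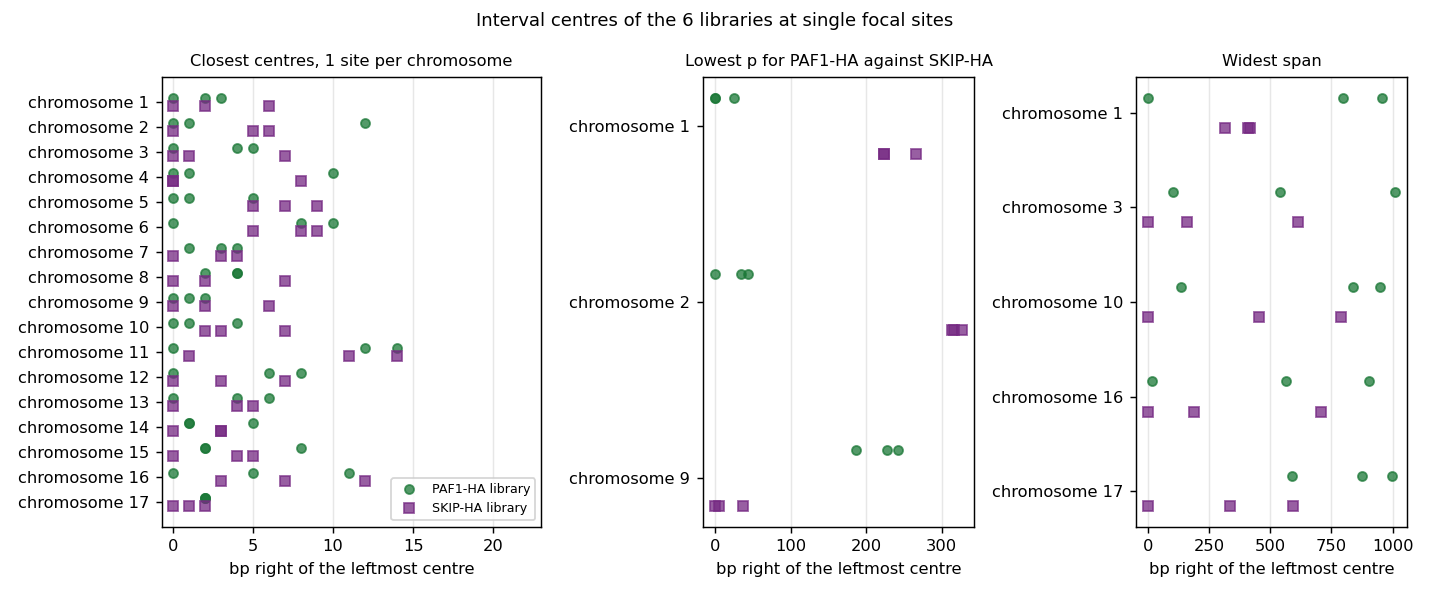
Interval centres of the 6 libraries at single focal sites, in bp right of the leftmost centre of the site, with circles for PAF1-HA and squares for SKIP-HA libraries. The left panel has the site with the smallest span on each of 17 chromosomes, all within 14 bp, the middle panel the 3 sites with the lowest limma p, where the groups separate, and the right panel the 5 widest sites.

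Sites whose centres lay close in the lists of one protein tended to have close centres in the lists of the other. The span of the 3 PAF1-HA centres had a median of 40.0 bp and that of the 3 SKIP-HA centres a median of 45.0 bp. Across the 1354 sites the spans had a Spearman correlation of 0.538. Sites are not independent replicates, and the merging rule bounds both spans, so this is given as a description. Where the PAF1-HA span was at most 10 bp (155 sites), the median SKIP-HA span was 19.0 bp, against 130 bp where the PAF1-HA span was above 100 bp (352 sites). Read the other way, the median PAF1-HA span was 17.0 bp in the 139 sites with a SKIP-HA span of at most 10 bp and 128 bp in the 388 sites with a span above 100 bp. The distance between the median centres of the proteins was 5 bp where the PAF1-HA span was at most 10 bp and 52.0 bp where it was above 100 bp. The same PAF1-HA centres enter both measures, and their median is less defined at wide spans. Part of this rise therefore follows from the measure, and how much was not tested.

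**Figure D2:**
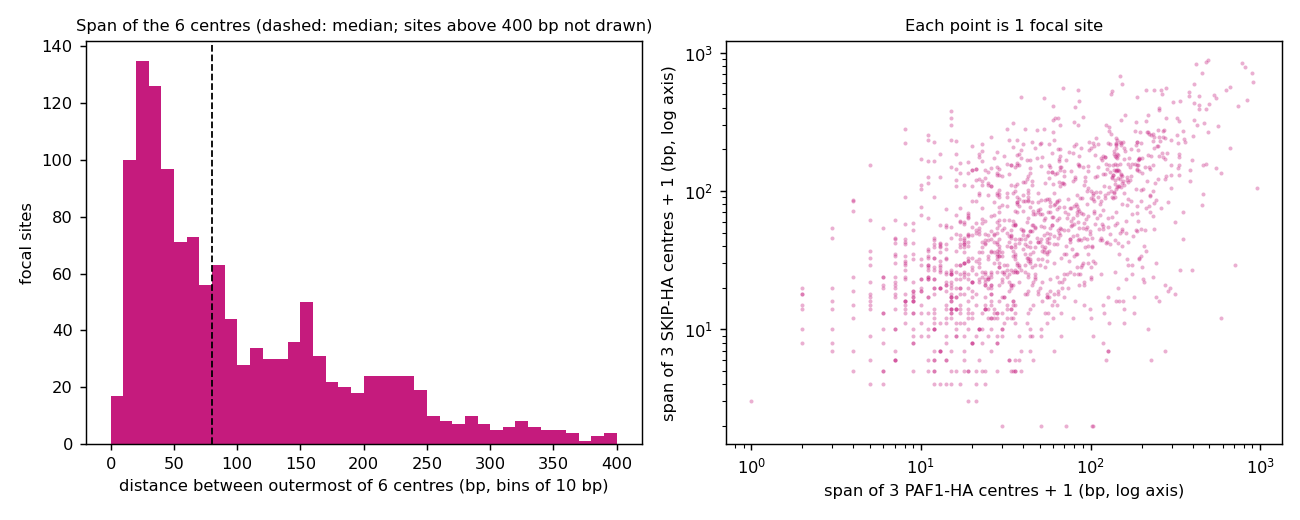
Left, number of focal sites by the distance between the outermost of the 6 centres in bp, in bins of 10 bp, with the median of 80.0 bp as a dashed line and the 69 sites above 400 bp not drawn. Right, the span of the 3 SKIP-HA centres against that of the 3 PAF1-HA centres for each site, both in bp with 1 bp added on log axes. Points spread along the diagonal, with a Spearman correlation of 0.538 over 1354 sites.

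Centres of different proteins and centres of 1 protein lay at similar median distances over the focal sites. The merging rule bounds these distances, since loci where the proteins' intervals did not link up were not focal sites. Over pairs of libraries, the median distance between centres at the focal sites was 22, 23 and 22 bp for the PAF1-HA pairs and 23, 25 and 24 bp for the SKIP-HA pairs. The 9 pairs of a PAF1-HA with a SKIP-HA library ranged from 21 to 27 bp. The mean was 23.9 ± 1.90 bp between proteins (SD over 9 pairs) and 23.2 ± 1.17 bp within a protein (SD over 6 pairs). This difference of 0.722 bp was smaller than the spread over pairs (two-sided exact permutation p = 0.4, where 10 splits of 6 libraries cannot give a p below 0.1). With the mean over sites in place of the median it was 1.61 bp, and without SKIP-HA replicate 1 it was 2.25 bp, and each had p = 0.1 by exact permutation, as low as this design goes. No pair looked like a single library deposited again. Identical centres were found at 1.03% to 2.66% of the sites over the 15 pairs, the highest value between PAF1-HA replicate 2 and SKIP-HA replicate 2.

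In the direction of rising coordinates, no offset between the proteins beyond the spread of the libraries was found. Genes and their strand were not analysed, so an offset that follows the direction of transcription could average out here. Relative to the mean centre of each site, the mean offset was 1.92, -3.00 and 0.191 bp for PAF1-HA replicates 1 to 3 and -1.84, 1.06 and 1.67 bp for SKIP-HA replicates 1 to 3, positive values lying at higher coordinates. The groups overlapped. The mean was 0.295 bp for SKIP-HA and -0.295 bp for PAF1-HA, and the difference of 0.590 bp was smaller than the spread between libraries (two-sided exact permutation p = 0.7). The size of the deviations overlapped as well. The median absolute offset was 19.1 ± 1.01 bp in PAF1-HA and 18.9 ± 0.646 bp in SKIP-HA libraries (SD, n = 3), and each library was an outermost one at between 32.3% and 37.0% of the sites.

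Site by site, a displaced centre was called at 1 focal site. limma was fitted to the centres of all 3025 regions with intervals in every library, of which it called 3 at a Benjamini-Hochberg adjusted p under 0.05, or 0.0992%, and 1 of these was focal. An unadjusted p under 0.05 was found for 33 focal sites (2.44%), against 205 of all 3025 regions (6.78%). The 3025 regions include the focal sites, and the fit draws each SE towards a spread shared by all of them. At the focal site with a span of 2 bp the SE was 15.3 bp. The lower share therefore does not show less displacement at focal sites. The 3 PAF1-HA centres did not overlap the 3 SKIP-HA centres at 144 focal sites (10.6%), against 12.6% of all 3025 regions, so the share at focal sites was near this background. The SKIP-HA centres were at the higher coordinates in 71 of the 144 and at the lower coordinates in 73. These counts go by coordinate and not by the direction of transcription. Small displacements were beyond the reach of this fit, since on simulated centres it recovered 0% of displacements of 50 bp and 63% of those of 200 bp, and called 5 regions that had not been displaced. The displaced regions were drawn from the focal sites and fitted together with all 3025 regions, so these recovery rates are those of focal sites. The 5 undisplaced calls were counted over the whole fit and not over focal sites alone. Displacements of these sizes may have been missed, and loci where the proteins' intervals did not link up were not fitted.

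The called site lay on chromosome 2 at 3704936 to 3705662. Its PAF1-HA centres stood at 34, 0 and 43 bp and its SKIP-HA centres at 314, 316 and 327 bp right of the leftmost centre, so the groups stood well apart. The SKIP-HA centre lay 293 bp to the higher-coordinate side (SE 19.6 bp, limma adjusted p = 0.0421). With any single library left out the displacement was 280 to 302 bp but no longer passed, with limma adjusted p between 0.0809 and 0.148. The next sites by p were not called. On chromosome 1 at 4274671 to 4275336 the PAF1-HA centres stood at 0, 24 and 0 bp and the SKIP-HA centres at 224, 266 and 223 bp (limma adjusted p = 0.0665). On chromosome 9 at 6072803 to 6073444 the order was turned, with PAF1-HA at 242, 186 and 228 bp and SKIP-HA at 5, 36 and 0 bp (limma adjusted p = 0.0930).

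Most sites chosen in 5 libraries were met by the sixth, as were most regions with several intervals. For each library in turn, regions with exactly 1 interval in each of the other 5 were listed, between 1634 and 1714 of them. PAF1-HA replicates 1 to 3 overlapped 86.5%, 85.1% and 85.6% of these, and SKIP-HA replicates 1 to 3 overlapped 87.6%, 88.5% and 87.3%. The 95% Wilson interval was 83.3 to 86.7 for the lowest of the 6, PAF1-HA replicate 2, and 85.7 to 88.8 for SKIP-HA replicate 3. The held-out SKIP-HA libraries were higher than the PAF1-HA libraries without overlap, by 2.12 percentage points (exact permutation, both sides, p = 0.1). No smaller p is possible with 6 libraries. Regions present in all 5 other libraries, with several intervals in at least 1, were overlapped in 79.3% ± 0.754 by PAF1-HA and 83.1% ± 1.98 by SKIP-HA libraries (SD, n = 3), a few points below the single-interval sites. Regions with an interval in only 1 of the other 5 were met in 19.0% ± 1.67 by PAF1-HA and 29.8% ± 4.91 by SKIP-HA libraries (SD, n = 3). SKIP-HA lists are longer than PAF1-HA lists, and the part of list length in these differences was not tested. Wilson intervals cover counting error only.

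Held-out centres mostly fell near the chosen centres, and not only within the same region. The held-out library had a centre within 100 bp of the median centre of the chosen intervals in 72.8% ± 0.702 of sites for PAF1-HA and 73.7% ± 1.49 for SKIP-HA libraries (SD, n = 3, two-sided exact permutation p = 0.4). For the regions with several intervals this was 33.3% ± 0.967 and 35.1% ± 0.668, so these classes stood further apart by centres than by overlap. Such regions are wider and their median centre is less defined. Agreement among the 5 chosen centres went with recovery in the sixth. Sites with a span of at most 30 bp were overlapped in 95.6% ± 0.594 and met within 100 bp in 93.9% ± 0.597 (SD over 6 held-out libraries). At spans above 100 bp these shares were 78.3% ± 1.85 and 52.6% ± 1.33.

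Replicate 3 of each protein, whose label fields differ, was also read as a held-out library. Exactly 1 interval in replicates 1 and 2 of both proteins was found for 2302 regions. PAF1-HA replicate 3 overlapped 81.3% and SKIP-HA replicate 3 overlapped 83.2% of them, both did in 70.5%, and neither did in 136 regions (5.91%). Regions in all 4 libraries with several intervals in at least 1 were close to this, at 77.6% and 81.6%, with neither in 5.38%. For regions with an interval in only 1 of those 4 libraries, the shares were 25.5% and 37.0%, with neither in 48.5%. By centres within 100 bp, the single-interval sites were met in 64.8% by PAF1-HA replicate 3 and 64.9% by SKIP-HA replicate 3, against 31.2% and 32.1% of the regions with several intervals.

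When sites were chosen in one protein alone, the other protein's lists could be read independently. Merging only the PAF1-HA lists gave 3412 regions with exactly 1 interval in each library, which SKIP-HA replicates 1 to 3 overlapped in 73.4%, 75.9% and 74.9%. All 3 SKIP-HA libraries had an interval at 52.2% of them, and none had at 218 regions (6.39%). Merging only the SKIP-HA lists gave 4196 such regions, which PAF1-HA replicates 1 to 3 overlapped in 64.0%, 63.7% and 64.1%. All 3 PAF1-HA libraries had an interval at 40.9% and none at 615 regions (14.7%). SKIP-HA lists are longer, and the part of list length in the difference between these directions was not tested. By overlap, regions with several intervals were met at a similar rate, 73.5% ± 2.82 where chosen in PAF1-HA and 63.7% ± 0.629 where chosen in SKIP-HA (SD, n = 3). By centres within 100 bp they were met in 28.2% ± 0.428 and 23.2% ± 1.06, against 53.4% ± 0.959 and 45.4% ± 0.533 of the single-interval sites. Regions of PAF1-HA found in 1 library only were met by SKIP-HA libraries in 39.5% ± 3.98, and regions of SKIP-HA found in 1 library only were met by PAF1-HA libraries in 25.3% ± 1.55 (SD, n = 3).

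Sites with the smallest spans in one protein were the ones most often met within 100 bp by the other. Among the PAF1-HA sites, the share with a SKIP-HA centre within 100 bp was 84.8% ± 2.23 at PAF1-HA spans of at most 10 bp (222 regions). It was 79.9% ± 1.25 at 11 to 30 bp, 68.8% ± 2.09 at 31 to 100 bp and 32.2% ± 0.512 above 100 bp (SD over 3 SKIP-HA libraries). Among the SKIP-HA sites the corresponding shares of PAF1-HA libraries were 77.6% ± 1.10, 74.6% ± 2.86, 60.3% ± 1.21 and 26.7% ± 0.810 (SD, n = 3). In both directions the shares at spans of up to 30 bp lay above those at wider spans by more than the spread between libraries. Where the choosing centres span more than 100 bp, the point from which the 100 bp are counted is itself less defined. Part of the fall therefore follows from the measure, and how much was not tested.

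**Figure D3:**
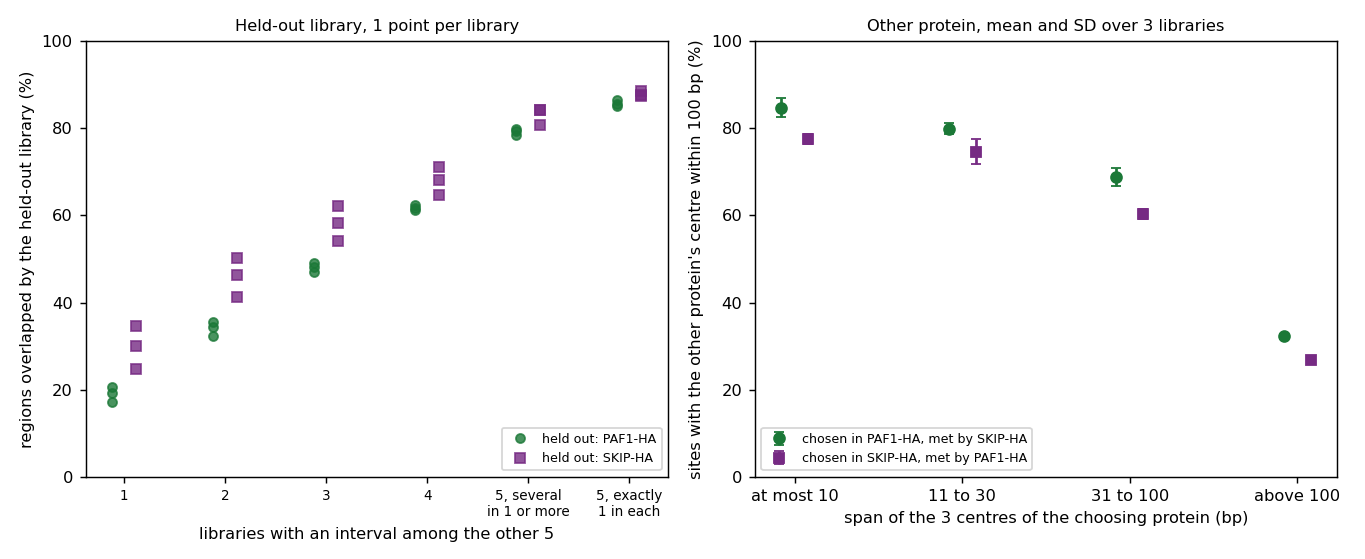
Left, percent of merged regions overlapped by a held-out library, 1 point per library, by the number of the other 5 libraries with an interval there; regions with exactly 1 interval in each of 5 reach 85.1% to 88.5%. Right, percent of sites chosen in one protein with a centre of the other protein within 100 bp, as mean and SD over 3 libraries, by the span of the 3 choosing centres; the share falls from 84.8% to 32.2% and from 77.6% to 26.7%.

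Most focal sites stood among other called regions. The distance from a focal site to the nearest other merged region had a median of 301 bp and quartiles of 113 and 719 bp, against a median of 222 bp over the other 35592 chromosome regions. Within single libraries, the nearest other interval lay 1009 to 1166 bp away by centre (medians of 6 libraries), against 853 to 1005 bp for the other intervals, 1.08 to 1.20 times as far. A region with close neighbours merges more easily and then drops out, so a somewhat larger distance follows from the rule. The median distance was 338 bp at spans of at most 20 bp and 241 bp at spans above 400 bp.

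A small number of focal sites were far from any other called region. A distance of at least 5 kb was found for 74 focal sites, or 5.47%, against 3.18% of the other regions, and of at least 10 kb for 33 focal sites, or 2.44%, against 0.542%. The outermost regions of chromosomes, 10 of these 33 focal sites among them, have a called neighbour on a single side. Their distance was taken on that side only, and that of all other regions on the nearer side. The focal share of merged regions was 3.47% at distances under 0.5 kb, 4.18% at 5 to 10 kb and 14.1% at 10 to 20 kb (29 of 205 regions) and 19% at 20 kb or more (4 of 21 regions). At 10 kb or more it was 14.6% (33 of 226 regions, 95% Wilson interval 10.6 to 19.8). Other regions called in many libraries were isolated by 5 kb about as often, namely 5.62% of those in 4 libraries, 5.07% of those in 5 and 4.61% of those in 6 with several intervals. At 10 kb their shares were 0.851%, 0.805% and 1.14%, below that of the focal sites. Beside peak-free stretches of at least 20 kb, 69 of 734 flanking regions were focal (9.40%, against 3.66% of all merged regions). All regions called in 6 libraries were also more frequent there, at 13.6% against 8.19%.

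**Figure D4:**
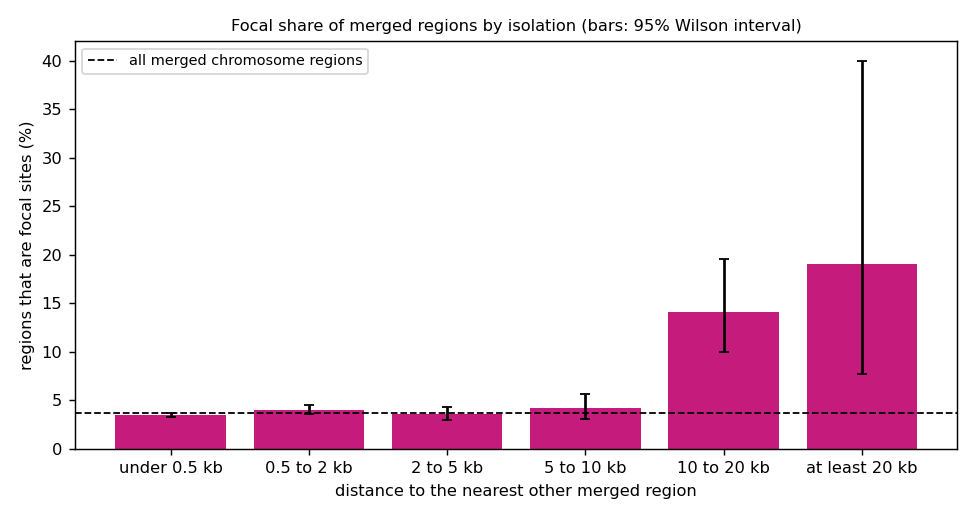
Percent of merged chromosome regions that are focal sites, by distance to the nearest other merged region, with 95% Wilson intervals that cover counting error only. The bars stay between 3.47% and 4.18% up to 10 kb and stand at 14.1% and 19% beyond, against 3.66% over all regions (dashed line).

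Focal sites were frequent at the outer edges of the called part of chromosomes. Of the 34 outermost merged regions of the 17 chromosomes, 16 were focal, or 47.1%, against 3.66% of all merged regions. Of the 34, 19 were called in all 6 libraries (55.9%, against 8.19% of all merged regions). The focal ones lay on 12 chromosomes, on 4 of them at both edges. With any single library left out, 16 to 18 of the outermost regions were focal. The edge is the last called region, which need not be the end of the sequence. On chromosome 3 the outermost site at 38465 to 38930 stood 33.7 kb from its neighbour, with PAF1-HA centres at 66, 20 and 44 bp and SKIP-HA centres at 0, 53 and 27 bp. On chromosome 15 the site at 5823844 to 5824251 stood 30.1 kb from its neighbour, with centres at 2, 2 and 8 bp and at 4, 5 and 0 bp. In both sites the centres of PAF1-HA and SKIP-HA overlapped. Of the 16 outermost sites, 11 were isolated by at least 5 kb and 10 by at least 10 kb, and 5 of the 10 most isolated focal sites were outermost. Isolation of an outermost site was read on a single side, so isolation and place at the edge are not separate measures. Isolation was not limited to the edges, since 23 of the 33 sites isolated by at least 10 kb lay inside a chromosome. The region on chromosome 15 at 1331872 to 1332387 had 22.4 kb around it, with PAF1-HA centres at 76, 41 and 12 bp and SKIP-HA centres at 66, 0 and 116 bp. Chromosome 17 at 6235203 to 6235618 had 20.6 kb, with centres at 16, 11 and 8 bp and at 0, 13 and 15 bp. Near the edges, 84 focal sites (6.20%) lay within 100 kb of the outermost interval, against 3.20% of the other regions. Regions called in all 6 libraries with several intervals were near this value, with 84 within 100 kb (5.03%, 95% Wilson interval 4.08 to 6.18, against 5.04 to 7.62 for the focal sites).

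Focal sites also occurred side by side. A neighbouring merged region was itself focal for 449 focal sites (33.2%), against 12.1% of the regions called in all 6 libraries with several intervals and 5.95% of all other regions. Between consecutive focal sites the median distance was 40.2 kb, and 214 of 1337 consecutive pairs (16.0%) lay within 2 kb, with a median of 777 bp between the centres of such pairs. At the other extreme, 297 sites (21.9%) had no other focal site within 50 kb. At least 5 other focal sites within 50 kb were found for 105 sites, 33 of them on chromosome 15 and 12 each on chromosomes 8 and 9.

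Chromosome 15 had the highest focal share of merged regions. It held 92 focal sites among 1232 merged regions, or 7.47% (95% Wilson interval 6.13 to 9.07), against 3.53% over the other 16 chromosomes. The next were chromosome 8 with 4.96% and chromosome 17 with 4.74%, and the lowest was chromosome 3 with 2.48% (1.98 to 3.09). Chromosome 15 remained first when any single library was left out, with 8.72% to 9.14%, and when 200 bp of overlap were required for merging, with 5.78%. Chromosome 15 was also first when the lists of each protein were merged alone. Exactly 1 interval in each of 3 libraries was found for 19.6% of PAF1-HA regions on chromosome 15 against 12.7% on all chromosomes, and for 17.4% of SKIP-HA regions against 12%, the highest value of 17 for both proteins. Regions called in all 6 libraries were frequent there as a whole, 167 of 1232, and 55.1% of these were focal, against 59.1% on chromosome 8, 54.6% on chromosome 17 and 44.8% over all chromosomes. The median span of its focal sites was 51 bp, the smallest of all chromosomes, and 17 of them had a span of at most 20 bp. Called regions were sparser there, with 216 per Mb against 292 to 379 on the other chromosomes. The part of this sparsity in the focal share was not tested. Per length, chromosome 15 held 16.1 focal sites per Mb, below the 17.4 of chromosome 8 and above the 8.25 of chromosome 3.

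**Figure D5:**
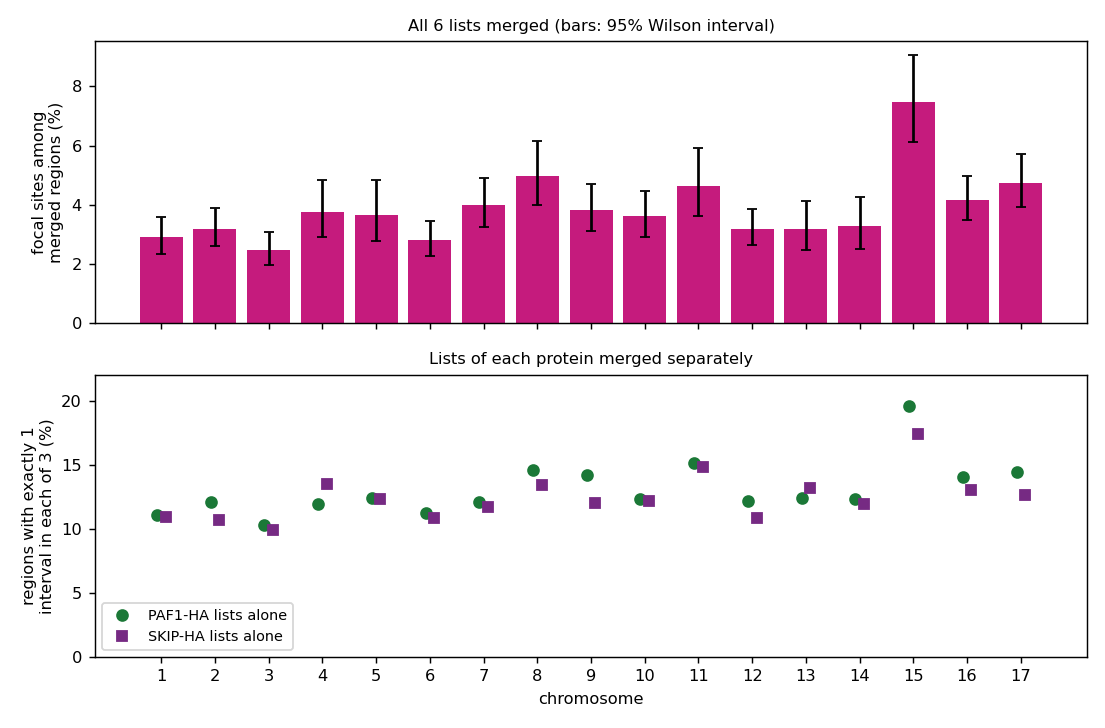
Top, percent of merged regions of each chromosome that are focal sites, with 95% Wilson intervals. Bottom, percent of regions with exactly 1 interval in each of 3 libraries when the lists of PAF1-HA (circles) or SKIP-HA (squares) are merged alone; chromosome 15 is highest in all 3 readings, at 7.47%, 19.6% and 17.4%.

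The densest group of focal sites lay on chromosome 15, where 11 sites fell within 80.7 kb, from 2709125 to 2789801. They made up 40.7% of the 27 merged regions there, of which 14 had intervals in all 6 libraries. The focal share was 7.47% over chromosome 15 and 3.66% over all chromosome regions. The stretch was picked for its focal sites and bounded by them, so a high share follows from the choice. The spans ran from 15 to 184 bp, with a median of 29.0 bp. The site at 2749020 to 2749445 had PAF1-HA centres at 9, 26 and 0 bp and SKIP-HA centres at 21, 14 and 8 bp, with the groups overlapping. The sites starting at 2709125 and 2709846 had 278 bp between their edges. On chromosome 8 the site at 951666 to 952163 and on chromosome 5 the site at 1316498 to 1316923 each had 7 other focal sites within 50 kb. Their spans were 98 and 26 bp.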

How the data were processed

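Chromatin immunoprecipitated with an anti-HA antibody was sequenced in 3 PAF1-HA, 3 SKIP-HA and 3 wild-type libraries, of which the 6 tagged libraries were analysed here, grouped by their titles. The deposited files hold the start and end of each interval in bp, 1 list per library, without a score. The submitters' processing notes name Bowtie2 and HOMER for 9 samples and MACS3 for 4, without version or role. Calling thresholds and controls are not stated there. Since MACS3 is named for 4 samples, the notes do not name it for all 6 lists analysed here. Whether the lists were called alike, and its part in the agreement of centres, was not tested.

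Intervals were merged with Python 3.11.15 (pandas 2.3.3, numpy 2.4.6, scipy 1.17.1) and drawn with matplotlib 3.10.9. A centre is the midpoint of an interval. The centres of the 3025 regions with intervals in all 6 libraries (the mean where a library had several) were fitted with limma 3.58.1 in R 4.3.3, SKIP-HA minus PAF1-HA, with Benjamini-Hochberg adjustment over these regions at 0.05, and the fit was tested on simulated centres. Single values per library were compared by exact permutation, two-sided. The p-values measure only how these libraries vary, which may be technical. Members, tests and rules for named sites were chosen with earlier results of these data known. Named were the closest site of each chromosome, the 10 most isolated, those with most focal neighbours, the 3 with the lowest limma p and the 5 widest, of which the text prints a part. The densest group, the outermost regions, chromosome 15 and the alternatives for them were chosen after seeing the data, as were the counts on all sequences and the distance within a library.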

Additional observations from a re-analysis of the deposited data

Results flagged for a closer look

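Outside the chromosomes, 15 of 106 merged regions had exactly 1 interval in each of the 6 libraries. These sequences entered no comparison above, and no wild-type list stands beside them. The plastome held 7 of its 64 merged regions in this form, with spans of the 6 centres between 12 and 99 bp, and the mitogenome 1 of 5, with a span of 178 bp. The remaining 7 lay on 5 contigs, and the single merged region of contig_55 had a span of 2 bp.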

How the results depend on the processing

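The number of focal sites depends on what is required. It was 1747 with an overlap of at least 200 bp for merging, 2302 with replicates 1 and 2 only, 784 with outermost centres at most 100 bp apart and 1369 with all sequences. Without 1 library it was 1634 to 1714, the median span 81.0 to 88.0 bp and the median distance to the nearest region 295 to 313 bp. The median span was 94.0 bp with replicates 1 and 2. The median distance was 151 bp with 200 bp of overlap, and 1078 bp to the nearest interval of the same library. The share isolated was 12.7% at 2 kb and 2.44% at 10 kb, and the share near the edges 3.99% within 50 kb and 9.68% within 200 kb. By centres within 100 bp, SKIP-HA libraries met 53.4% of PAF1-HA sites, not 74.7%, and PAF1-HA libraries 45.4% of SKIP-HA sites, not 63.9%.

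The centres at focal sites showed little pairing by replicate number, since deviations of same-numbered libraries from their group means correlated at 0.0822, -0.00991 and 0.0574. This cannot show whether same-numbered libraries were prepared together. With limma and the replicate number as a block 0 focal sites were called (27 at an unadjusted p under 0.05), as with the robust prior (31), with replicates 1 and 2 only (52) and without any 1 library (range 0 to 0 called, 37 to 51 at an unadjusted p under 0.05). The displacement on chromosome 2 stayed at 280 to 302 bp in these fits. With an overlap of at least 200 bp for merging, limma called 1 focal site (66 at an unadjusted p under 0.05). Pairing left the offset between proteins at 0.590 bp (exact permutation p = 0.75, where 3 pairs cannot give a p below 0.25). That offset ranged from -0.761 to 1.70 bp without 1 library, turning negative without PAF1-HA replicate 2 (-0.761 bp) and without SKIP-HA replicate 3 (-0.0954 bp). The difference between pairs across and within proteins ranged from 0.0 bp, without PAF1-HA replicate 3, to 2.25 bp, without SKIP-HA replicate 1 (exact permutation p = 0.1), and was 1.61 bp by the mean over sites (p = 0.1). The cause of these shifts was not tested. Depth is unknown, and no list could be thinned by score.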
